A study of Mus musculus with 6 samples.

Results

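The mouse annotation holds many loci with a provisional name of the form Gm and a number, which marks a gene model predicted by computer and not yet given a name of its own. Of 57010 genes listed, 27671 had such a symbol and 6867 of these were above 0 in at least 1 library. The genes described here are the 204 of them whose mean over all 6 libraries was at least 10 TPM (transcripts scaled to a fixed library total), a unit that divides reads by transcript length. They were chosen by their mean TPM and their symbol, so their levels are given as a description.

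The tissue was gastrocnemius, the main calf muscle, of NSG mice (NOD/SCID/IL2Rγ-null), an immune-deficient strain that accepts human tumours. All mice carried a subcutaneous tumour on the left flank grown from MDA-MB-231/Rab27a KD cells, a human breast cancer line in which Rab27a, a GTPase of vesicle secretion, was knocked down, so both groups shared the knockdown. In the radiotherapy group (3 samples) the tumour had received 1 dose of 10 Gy at a volume near 800 mm3, and the muscle on the opposite side was taken 3 days later. The control group (3 samples) is labelled only as control, and the labels give no age or sex of the mice and no method of knockdown. Nothing says that the samples came from separate mice, so p-values measure only the spread between these samples. Depth per library is unknown, since TPM removes it.

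Many predicted genes are pseudogenes. A processed pseudogene is a messenger RNA that was copied back into DNA and inserted in the genome, usually without introns, and abundant housekeeping mRNAs such as those of glycolytic enzymes and ribosomal proteins have left many such copies. Stretches of mitochondrial DNA have also moved into nuclear chromosomes, where they are annotated as unprocessed pseudogenes. A short read from a shared stretch fits the source and the copy equally well, so the level given to each depends on how reads were assigned; small structural RNAs such as 5S ribosomal RNA and the spliceosomal U1 and U2 RNAs, which have many copies, pose the same problem.

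The sequences most alike between copies and sources are shown first, because they limit what the levels can mean. Transcripts of 196 of the 204 genes were found in GENCODE M21 (build GRCm38), 177 by gene identifier and 19 by symbol alone; 107 matched a named transcript at 98% identity or more over at least 90% of their own length, and 57 of these were identical over the aligned part. All sequences run 5′ to 3′ along the transcript. These are the opening bases of 4 predicted genes that match a mitochondrial messenger RNA gene without a mismatch, the source being mt-Co3, mt-Co2, mt-Atp6 and mt-Nd4l in that order.
Gm28437: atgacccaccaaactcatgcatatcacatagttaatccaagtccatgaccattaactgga
Gm28661: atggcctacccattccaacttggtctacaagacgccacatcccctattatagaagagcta
Gm10925: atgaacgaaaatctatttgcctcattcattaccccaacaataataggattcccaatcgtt
Gm10222: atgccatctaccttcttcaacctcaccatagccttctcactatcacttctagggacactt

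The next stretches hold the only mismatch between a copy and its source, in capitals; each mismatch is named by the source base, its position from 1 at the 5′ end of the source transcript, and the base of the copy. Gm28438 differed from mt-Nd3 by T3C over 345 aligned bases. Gm29216 differed from mt-Co1 by A1066T over 483 aligned bases of its 492. Gm13394, the most abundant copy of Gapdh, differed by A438C.
Gm28438: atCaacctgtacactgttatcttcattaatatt
mt-Nd3: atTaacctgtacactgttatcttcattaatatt
Gm29216: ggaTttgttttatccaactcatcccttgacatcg
mt-Co1: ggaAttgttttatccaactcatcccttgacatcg
Gm13394: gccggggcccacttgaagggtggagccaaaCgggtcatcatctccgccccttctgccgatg
Gapdh: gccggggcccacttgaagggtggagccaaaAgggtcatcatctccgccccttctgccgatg

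Among small RNAs, 6 rows (Gm23284, Gm25212, Gm22291, Gm26391, Gm25018 and Gm22109) shared the whole 119-base 5S sequence in M21, so that no base separates them there. Gm22317, Gm22068, Gm25679 and Gm26444 shared all 164 bases of U1, shown for the first of them; Gm24305 differed from U1 (Rnu1a1) by A26G, in capitals.
Gm22317: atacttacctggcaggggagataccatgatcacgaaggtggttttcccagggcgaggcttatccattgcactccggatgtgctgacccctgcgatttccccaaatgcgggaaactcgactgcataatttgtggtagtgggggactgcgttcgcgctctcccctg
Gm24305: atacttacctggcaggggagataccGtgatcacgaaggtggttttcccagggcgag

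The 6 mitochondrial-like genes lay side by side on the minus strand of chromosome 1 within 3791 bases, from 24612407 to 24616197 (GRCm38), all annotated as unprocessed pseudogenes. Gm10222 was at chr1:24612407-24612700 and Gm28438 at chr1:24612775-24613119. Gm28437 followed at chr1:24613189-24613971 and Gm10925 at chr1:24613974-24614651. Gm28661 was at chr1:24614885-24615565 and Gm29216 at chr1:24615706-24616197. Read along the minus strand, the copies follow the order of their sources in mitochondrial DNA, from mt-Co1 to mt-Nd4l.

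Libraries that stood apart are named here because several results rest on them. Radiotherapy 2 had the lowest summed level of 8 muscle fibre markers (55499 TPM, against 90745 and 99450 in the other radiotherapy libraries and 120149 to 127567 in controls) and the highest level of small structural RNAs, and control 1 was the highest control for those. Of the 8 fibre markers, 6 were below every control library in all radiotherapy libraries. Pvalb and Myh1 overlapped between groups, and Myh1 was highest in radiotherapy 2, at 852 TPM against 216 to 571 TPM in controls. All 5 of 5 red cell markers were below every control library, with a sum of 3352 to 7203 TPM in controls and 930 to 1618 after radiotherapy. Summed leukocyte markers ranged from 280.5 to 1778 TPM in controls and from 154 to 742 after radiotherapy, adipocyte markers from 26.6 to 276 and from 197 to 1508, fibroblast markers from 78.9 to 167 and from 82.6 to 129, and endothelial markers from 52.1 to 67.1 and from 52.5 to 74.6. No marker in these lists was at 0 in every library. The part of these differences in the results below was not tested, and in bulk tissue fewer cells of a type and less RNA per cell cannot be told apart.

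The 204 predicted genes held 14.8%, 16.3% and 15.7% of TPM in controls 1 to 3 and 17.9%, 23.9% and 15.9% in radiotherapy 1 to 3. The groups overlapped, as radiotherapy 3 was below control 2. The mean was 15.6% ± 0.728 (SD, n = 3) in controls and 19.2% ± 4.17 (SD, n = 3) after radiotherapy, a difference of 3.61 percentage points that was 1.28 without radiotherapy 2. The levels were very uneven: 12 genes had a mean of at least 1000 TPM, 53 of at least 100, and the median of the means was 31.3 TPM. All the Gm-numbered rows under the limit together added 0.214% to 0.296% of TPM per library.

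**Figure D1:**
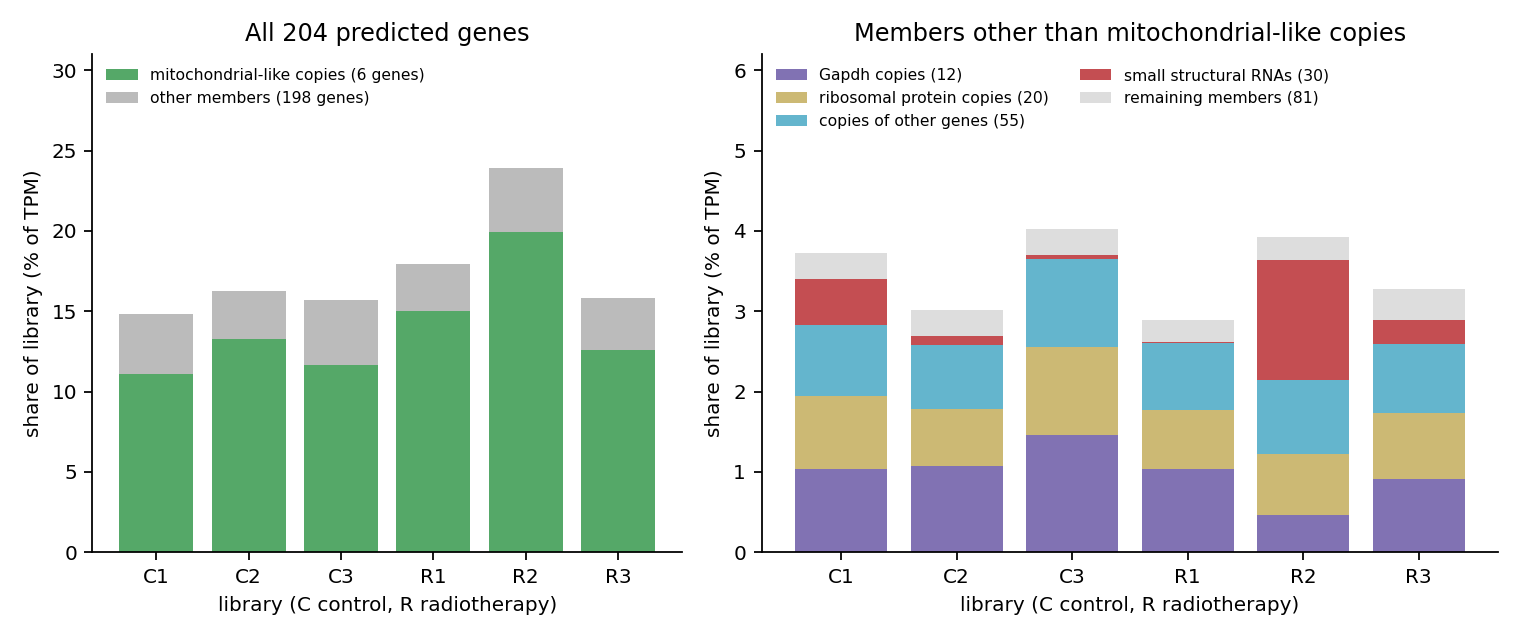
Bars show the percent of TPM held by the predicted genes in each of the 3 control (C) and 3 radiotherapy (R) libraries; the left panel splits all 204 into the 6 mitochondrial-like copies and the other 198, and the right panel splits those 198 by the kind of gene they match. Mitochondrial-like copies make up most of every bar on the left, and in the right panel small structural RNAs are largest in R2, at 1.50%.

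By kind, the 204 comprised 6 copies of mitochondrial genes, 12 copies of Gapdh, 20 of ribosomal protein genes, 55 of other genes and 30 small structural RNAs. A further 47 were long non-coding RNAs or models still awaiting experimental evidence, 14 were annotated as protein coding and 12 as pseudogenes, all without a near-identical named transcript, and 8 had no sequence to compare. A gene was counted as a copy by likeness to a named transcript, whatever its annotation, which does not show that it derives from that gene. The 55 copies of other genes include Gm11808 and Gm10053, which are annotated as protein coding. The 6 mitochondrial-like copies alone held 80.0% of the TPM of all 204, from 74.4% in control 3 to 83.9% in radiotherapy 1.

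In the comparison of radiotherapy with control, 191 of the 204 genes had at least 1 TPM in at least 3 libraries and entered the test. With limma across all 11375 genes tested, 0 were past an adjusted p of 0.05 (0% of genes), and 0 of the 191 predicted genes were; at an unadjusted p under 0.05, 8 predicted genes were higher (4.19%, against 0.967% of all genes) and 9 were lower (4.71%, against 2.86%). The 3 radiotherapy values lay wholly outside the control values for 16 of the 191 (8.38%), near the 9.24% of all genes. Of the 191, 7 were above (3.66%, against 1.7% of all genes) and 9 below (4.71%, against 7.54%). The 7 above and the 8 higher include Gm55635 and Gm24497, which reached the mean of 10 TPM only through the radiotherapy libraries. The 8 higher also include 3 of the mitochondrial-like copies, which lie side by side on chromosome 1. These shares are therefore a description. Gm24497 was at 0 in all controls. A gene with all controls at 0 passes the filter only if its groups do not overlap. The median log2 fold change of TPM + 1 was -0.08 for the predicted genes and -0.11 for all genes. Negative values made up 54.97% of the predicted genes and 67.9% of all genes.

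**Figure D2:**
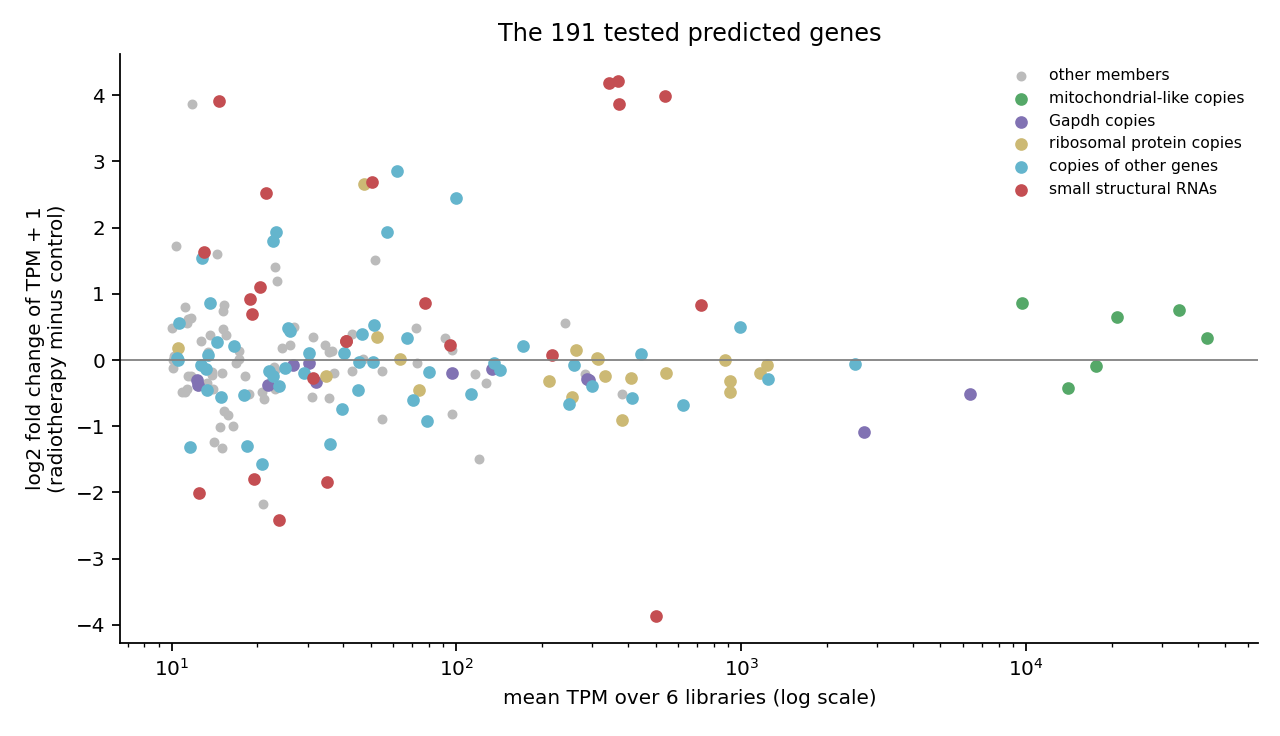
Each point is 1 of the 191 tested predicted genes, placed by its mean TPM over 6 libraries (log axis) and by its log2 fold change of TPM + 1, radiotherapy minus control; colours mark the kind of gene it matches. The 6 mitochondrial-like copies lie at the far right, the 12 Gapdh copies are all below 0 on this scaling, and small structural RNAs are widely spread; none of the points was past an adjusted p of 0.05 with limma.

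The mitochondrial-like copies as a set held 11.1%, 13.3% and 11.7% of TPM in controls and 15.0%, 19.96% and 12.6% after radiotherapy, with control 2 above radiotherapy 3. Their mean was 12.0% ± 1.12 (SD, n = 3) in controls and 15.9% ± 3.76 (SD, n = 3) after radiotherapy, a difference of 3.84 percentage points that was 1.79 without radiotherapy 2. The 37 genes of the mitochondrial genome itself held 10.4%, 13.7% and 8.93% in controls and 18.9%, 22.5% and 15.1% after radiotherapy, with no overlap. Counting the 37 genes and the 6 copies together gave 20.6% to 27.0% in controls and 27.7% to 42.5% after radiotherapy. The copies held more than these 37 genes in controls 1 and 3 and less in the other 4 libraries.

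Gm28437, which matches mt-Co3, a subunit of cytochrome c oxidase, was the most abundant predicted gene. It stood at 37464, 38095 and 38058 TPM in controls and at 47760, 58855 and 38043 TPM after radiotherapy. The controls were close to each other and radiotherapy 3 lay within them, so the groups overlapped (log2 fold change 0.33, SE 0.17). The named gene mt-Co3 was far lower, between 1925 and 2840 TPM, and Gm28437 held 93.1% to 95.7% of the pair's TPM in each library. The sign of its fold change was negative (-0.36) under quantile normalization.

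Gm28661 matches mt-Co2, another cytochrome c oxidase subunit. Its levels were 24141, 29981 and 22151 TPM in controls and 42355, 52324 and 35029 TPM after radiotherapy, so every radiotherapy library was above every control. The log2 fold change was 0.76 (SE 0.18), with an unadjusted p of 0.00243 and an adjusted p of 0.977 in limma, so the difference did not pass the test. mt-Co2 itself ranged from 834 to 1742 TPM and also did not overlap between groups (log2 fold change 0.63). The predicted copy held 95.0% to 96.8% of the pair.

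Gm10925, which matches mt-Atp6, a subunit of ATP synthase, stood at 13463, 21757 and 13308 TPM in controls and 23476, 33865 and 19201 TPM after radiotherapy. Control 2 exceeded radiotherapy 3 (log2 fold change 0.66, SE 0.25), and the copy held 84.5% to 88.5% of the pair. Gm10222 matches mt-Nd4l, a subunit of respiratory complex I, and followed the same order of libraries, with 5993, 10005 and 4602 TPM in controls and 11203, 18179 and 8235 TPM after radiotherapy (log2 fold change 0.87, SE 0.34). It held 81.6% to 89.8% of its pair. Both copies were highest in radiotherapy 2 and overlapped between the groups.

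Gm28438, the copy of mt-Nd3, another complex I subunit, had a fold change near 0. It stood at 16450, 16067 and 21501 TPM in controls and 16262, 21888 and 13038 TPM after radiotherapy. The log2 fold change was -0.10 (SE 0.21), and it turned positive without control 3, without radiotherapy 3, and under median-of-ratios or quantile scaling. mt-Nd3 itself gave 0.11.

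Gm29216 differed from the other 5 in matching only part of its source, the mt-Co1 gene for the catalytic subunit of cytochrome c oxidase, and in being lower than it. Its levels were 13661, 16848 and 17230 TPM in controls and 9359, 14519 and 12300 TPM after radiotherapy (log2 fold change -0.42, SE 0.19). mt-Co1 stood at 25802, 23354 and 23203 TPM in controls and 37096, 43761 and 26047 TPM after radiotherapy (0.53, SE 0.19), with no overlap. The copy therefore held 34.6%, 41.9% and 42.6% of the pair in controls and 20.1%, 24.9% and 32.1% after radiotherapy, again with no overlap. The copy and its source thus had fold changes of opposite sign, and the difference between the 2 was not tested. Adding their TPM gave a log2 fold change of 0.23, with an adjusted p of 0.979 in limma.

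**Figure D3:**
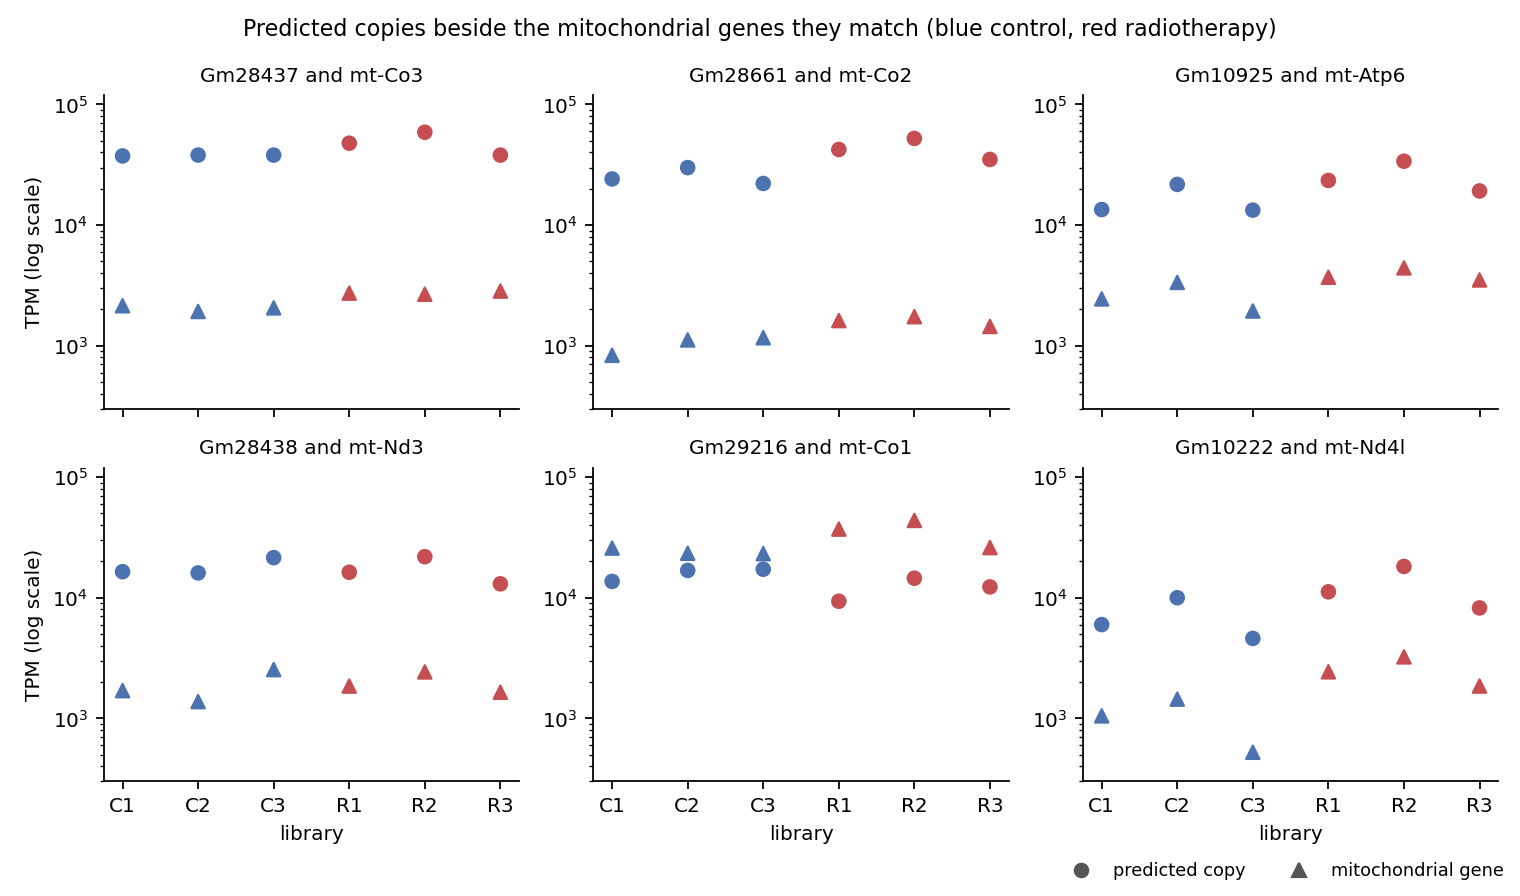
Each panel gives the TPM (log axis) of a predicted copy (circles) and the mitochondrial gene it matches (triangles) in 3 control (C, blue) and 3 radiotherapy (R, red) libraries. The copy lies above the source in all libraries of 5 pairs; for Gm29216 and mt-Co1 the copy lies below, and further below after radiotherapy.

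Of the 13 messenger RNA genes of the mitochondrial genome, the 7 without a copy among the 204 had log2 fold changes between 0.56 (mt-Nd1) and 1.22 (mt-Nd5), and 6 of these did not overlap between groups. Of the 6 with a copy, 5 were above all controls in all radiotherapy libraries, mt-Nd3 being the exception. Of the 6 copies, Gm28661 alone did not overlap. The adjusted p in limma was between 0.977 and 0.985 for these 13 genes and the 6 copies. With copy and source added, the fold change was 0.94 for mt-Nd4l, 0.75 for mt-Co2, 0.65 for mt-Atp6, 0.33 for mt-Co3 and -0.08 for mt-Nd3. All 13 mitochondrial genes had positive fold changes under the 2 other scalings that kept them; 1 was negative without control 2, and 1 without radiotherapy 2. The 2 mitochondrial ribosomal RNAs, mt-Rnr1 and mt-Rnr2, had log2 fold changes of 0.05 and 0.10.

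**Figure D4:**
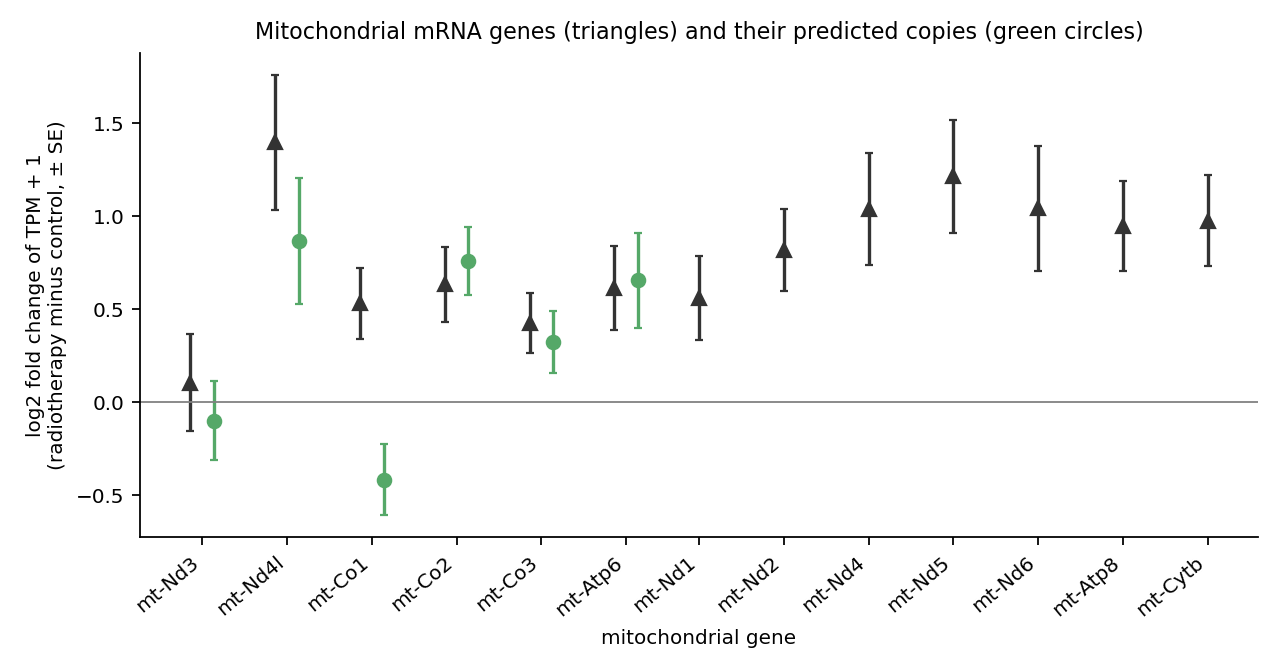
Points give the log2 fold change of TPM + 1 (radiotherapy minus control) with its standard error for the 13 mitochondrial messenger RNA genes (triangles) and the 6 predicted copies (green circles, beside their source). The copy of mt-Co1 lies at -0.42 while mt-Co1 lies at 0.53; none passed an adjusted p of 0.05 with limma.

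Profiles over the libraries were compared for the 4 most abundant copies. Over the 6 libraries and all 11375 genes tested, the highest Pearson r of log2(TPM + 1) with Gm28661 was 0.989 (mt-Cytb), then 0.979 (mt-Nd2) and 0.970 (Zfp729a), against 0.868 for its own source. Gm10925 was nearest to its neighbour Gm10222 (0.986), then Swt1 (0.982) and mt-Cytb (0.962), against 0.935 for mt-Atp6. Gm28437 was nearest to Nemp1 (0.968), mt-Co1 (0.966) and Rpl38-ps2 (0.962), and its r with its source mt-Co3 was 0.558. Gm28438 was nearest to A530013C23Rik (0.978), Cdkl3 (0.965) and Spa17 (0.964), against 0.822 for mt-Nd3. With 6 libraries that share one total, these coefficients are descriptions.

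Copies of Gapdh, the glycolytic enzyme glyceraldehyde-3-phosphate dehydrogenase, were the next most abundant. Near-identical Gapdh copies above 0 in some library numbered 36, and 12 of them passed the limit of 10 TPM. They held 1.04%, 1.08% and 1.46% of TPM in controls and 1.03%, 0.460% and 0.916% after radiotherapy, with radiotherapy 2 lowest. The median log2 fold change of the 12 was -0.30, all 12 being negative, but without radiotherapy 2 it was 0.04 with 5 negative and 7 positive. Under other scalings 8 or 9 of the 12 were negative. Radiotherapy 2 also had the lowest summed level of the muscle fibre markers.

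Gm13394, on chromosome 2 (chr2:28933610-28934609), stood at 6447, 6588 and 8892 TPM in controls and 6839, 3106 and 6146 TPM after radiotherapy. Gm7336, on chromosome 7 (chr7:51746647-51747878), with 3 mismatches to Gapdh, stood at 2932, 3207 and 4667 TPM in controls and 2515, 929 and 1934 TPM after radiotherapy. It was lower in every radiotherapy library than in every control (log2 fold change -1.09, SE 0.35; unadjusted p = 0.0126, adjusted p = 0.977 in limma). Gm12671 and Gm10359, both identical to Gapdh over the aligned part, were alike at means of 292 and 287 TPM, and Gm12070 was at 133 TPM. Gapdh itself ranged from 7215 to 9367 TPM, and its copies together held 54.1%, 57.2% and 61.0% of the family in controls and 57.4%, 37.2% and 56.0% after radiotherapy. With the 36 copies added to Gapdh, the log2 fold change was -0.41, with an adjusted p of 0.979 in limma.

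By mean TPM, near-identical predicted genes together stood above the named gene they match for 43 of 76 such named genes. Copy and source are used here for likeness of sequence, which does not show that a row derives from the named gene. The 76 include barely detected genes such as Or2y1 and Vmn2r53, at means of 0.473 and 0.292 TPM. For ribosomal protein genes, which build the ribosome, the copies were above the source for 7 of 16. Rpl12 lay at the top: its copies, mostly Gm10275 at a mean of 1234 TPM, held 98.3% of the family, while Rpl12 itself averaged 21.2 TPM. Gm15500 held most of the Rpl5 family (97.998%), with Rpl5 at 11.1 TPM, and Gm7536 most of that of Rpl27a (89.7%). Gm10163, Gm13370 and Gm10240, at 333, 313 and 311 TPM, belong to the Rpl21 family, in which 10 copies together held 86.0%. At the other end, copies held 1.44% of the Rpl7a family, 3.66% of that of Rpl41 and 4.81% of that of Rpl13.

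Copies of respiratory chain and ATP synthase genes, which are nuclear but act in mitochondria, showed the same range. Gm10221 matches Atp5l and was the most abundant of them, at 1940, 2033 and 3774 TPM in controls and 2437, 3077 and 1751 TPM after radiotherapy, 59.6% of the pair. Gm10175 matches Atp5g2 and held 97.9% of the pair; it stood at 681, 741 and 872 TPM in controls and 568, 367 and 508 TPM after radiotherapy, without overlap (log2 fold change -0.68, SE 0.23; adjusted p = 0.977 in limma). Gm12338 matches Cox7c, a small subunit of cytochrome c oxidase, and its part of the pair ranged from 25.8% to 51.6% between libraries. Gm14539 was at 4.41, 25.8 and 116 TPM in controls and 161, 77.1 and 214 TPM after radiotherapy (log2 fold change 2.44, SE 0.92), yet held only 4.65% of the family of its source, listed as Atp5md. Gm10039 (Atp5g1) and Gm10053 (Cycs, cytochrome c) averaged 299 and 445 TPM.

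Other copies above 100 TPM matched genes of varied function. Gm10177 matches Sec61g, part of the channel that brings proteins into the endoplasmic reticulum, and stood at 550.4, 467 and 460.5 TPM in controls and 346, 375 and 278 TPM after radiotherapy, without overlap (log2 fold change -0.57, SE 0.21; adjusted p = 0.977 in limma). Gm11518, a copy of Rpl27, varied widely between libraries, at 607, 241 and 517 TPM in controls and 64.8, 325 and 535 TPM after radiotherapy. Further ribosomal copies, Gm10443 (Rps28), Gm14303 (Rps29), Gm12191 (Rpl30), Gm4332 (Rps20), Gm10243 (Rpl35a), Gm13841 and Gm8210 (both Rpl29), had means from 211 to 913 TPM. Gm45660 fell short of the limit, at 97.35% identity to Rps19, with a mean of 240.3 TPM.

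Further genes above 100 TPM were Gm10123 (Ppia), Gm15459 (Hspa8), Gm49909 (Myl12b), Gm12481 (Serf2), Gm15387 (Hmgb1), Gm3375 (Psmb5) and Gm14567 (Polr2k), with means from 113 to 282 TPM. Of these, Gm49909 is annotated as protein coding and was closest to Myl12b without passing the limits of likeness. The non-coding models Gm15179 and Gm44386 were at 127 and 116 TPM. Of the long non-coding genes, Gm12319, a model on chromosome 11 with no near-identical named transcript, had the smallest p among predicted genes with lower values after radiotherapy. It stood at 194, 161 and 160 TPM in controls and 114, 35.6 and 52.6 TPM after radiotherapy (log2 fold change -1.50, SE 0.39; unadjusted p = 0.00366, adjusted p = 0.977 in limma). Gm47908 behaved alike at a lower level, at 63.8, 91.9 and 58.7 TPM and then 48.9, 31.9 and 33.0 TPM (-0.90, SE 0.28), and Gm16124 gave -1.01 (SE 0.36). None of the 3 passed the test.

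Among genes with higher values after radiotherapy, Gm55635 had the smallest p of all predicted genes. It was listed at 2.69, 0 and 0 TPM in controls and 13.4, 25.2 and 29.4 TPM after radiotherapy (log2 fold change 3.87, SE 0.51; unadjusted p = 3.46e-05, adjusted p = 0.394 in limma). With controls at or near 0 the size of this fold change is set by the pseudocount, and with a pseudocount of 0.1 it was 6.15 (adjusted p = 0.876 in limma). Over all alternatives the adjusted p in limma ranged from 0.000948, without control 1, to 0.99993, without radiotherapy 2. Without control 1 the controls left were all at 0. The means of Gm55635 were 0.897 TPM in controls and 22.7 TPM after radiotherapy. It therefore reached the limit of 10 TPM only through the radiotherapy libraries. No sequence was found for this gene. Gm24497, a U2-like small RNA, was listed at 0 in all controls and at 1.82, 70.0 and 15.9 TPM after radiotherapy, and its adjusted p was 0.977 in limma, with a range over the alternatives from 0.0148, without radiotherapy 1, to 0.99993, without radiotherapy 2. With means of 0 TPM in controls and 29.2 TPM after radiotherapy, Gm24497 likewise reached the limit only through the radiotherapy libraries. Gm45665 stood at 26.4, 34.7 and 13.5 TPM in controls and 39.8, 54.5 and 142 TPM after radiotherapy (log2 fold change 1.50, SE 0.49).

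The 30 small structural RNAs, 6 of 5S ribosomal RNA, 12 spliceosomal, 11 small nucleolar and 1 of Cajal bodies, differed widely between libraries of the same group. Their sums were 5763, 1059 and 572 TPM in controls and 108, 14994 and 3000 TPM after radiotherapy. The number at 0 was 13, 13 and 19 in controls and 21, 4 and 11 after radiotherapy. The highest library was radiotherapy 2 for 15 of the 30 and control 1 for 10, and 0 of the 23 tested were past the threshold.

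The 6 identical 5S rows summed to 0, 862 and 0 TPM in controls and 0, 9861 and 2260 TPM after radiotherapy, and all 6 were highest in radiotherapy 2. Single rows differed although their M21 sequences do not: Gm23284 was at 2249 TPM in that library and Gm26391 at 1269 TPM. Both, like the U1 rows Gm22068 and Gm22317 below, were found in M21 by symbol alone, so the authors' sequences may differ. The 12 spliceosomal rows summed to 5121, 78.3 and 383 TPM in controls and 98.2, 4674 and 491 TPM after radiotherapy. Gm22068, of the identical U1 rows, was at 2198 TPM in control 1 and at 0 in radiotherapy 1 and 3, while its identical partner Gm22317 was at 2193, 23.2 and 294 TPM in those 3 libraries. The small nucleolar rows summed to 631, 94.8 and 182 TPM and then 0, 416 and 230 TPM.

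Within the U1 family (7 rows including the named gene) several rows had exactly the same value in a library. In control 2, 6 rows stood at 11.29 TPM; in control 3, 5 stood at 82.26 TPM; and in radiotherapy 1, 5 stood at 23.21 TPM. In the U2 family of 9 rows, 4 stood at 1.22 TPM in control 2 and 4 at 10.77 TPM in control 3. In control 1, radiotherapy 2 and radiotherapy 3 the U1 rows above 0 had unequal values, 2, 4 and 2 of them. The U1 family totals were 4390, 67.7 and 411 TPM in controls and 116, 3774 and 883 TPM after radiotherapy.

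**Figure D5:**
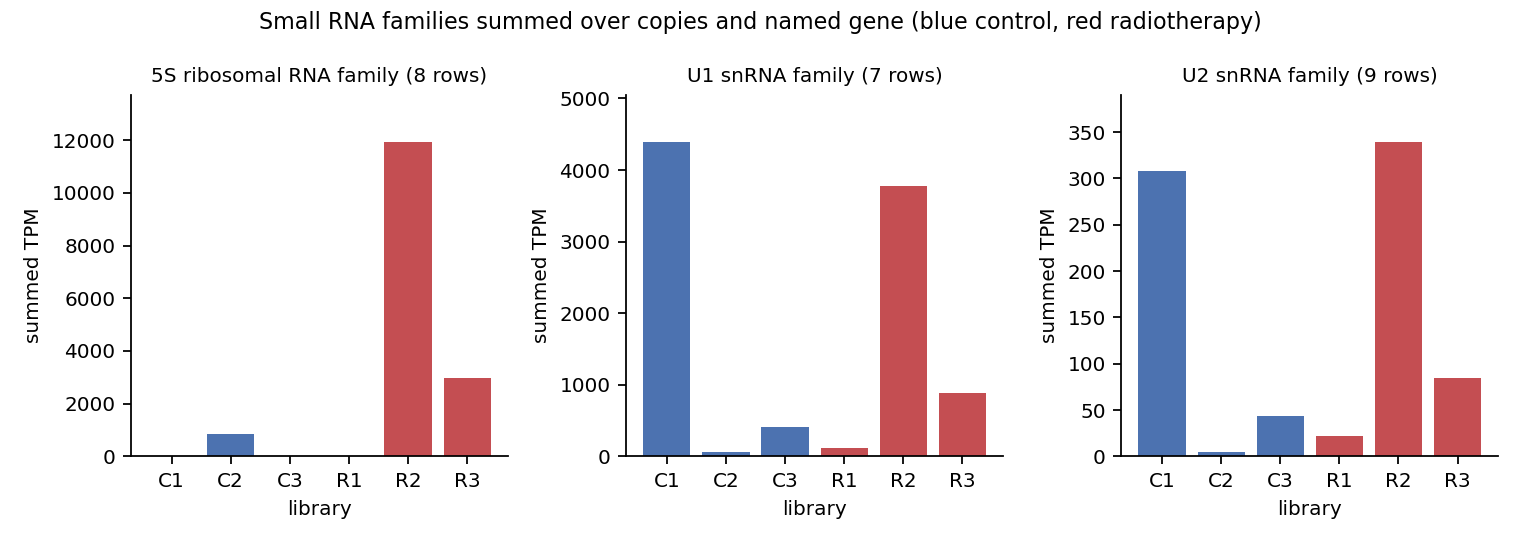
Bars give the summed TPM of the 5S, U1 and U2 families, named gene included, in 3 control (C, blue) and 3 radiotherapy (R, red) libraries. C1 and R2 are highest for U1 and U2, R2 is highest for 5S, and 3 libraries are at 0 for 5S.

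In 11 of the 204 genes 1 library stood far above the rest, taken as a highest value at least 5 times the next. Radiotherapy 2 was that library for 5 (Gm25212, Gm25018, Gm22109, Gm24305 and Gm25313), control 1 and radiotherapy 3 for 2 each, controls 2 and 3 for 1 each, and radiotherapy 1 for 0. Of the 11, 6 were small structural RNAs. Gm25212, Gm25018 and Gm22109 have the same 5S sequence in M21, so they are not separate patterns. The 6 rows with that sequence summed to 9861 TPM in radiotherapy 2 and 2260 TPM in radiotherapy 3, which falls short of the factor of 5. Gm55944 (259.8 TPM) and Gm10060 (234.3 TPM) were above 0 in radiotherapy 3 alone, Gm23245 (108 TPM) in control 1 alone and Gm56273 (66.9 TPM) in control 2 alone. Gm28900 reached 267 TPM in control 3 and Gm56407 95.9 TPM in control 1. Of the 11, 3 entered the test; of all 204, 52 were at 0 in some library and 38 had a median under 10 TPM.

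At the limit itself, Gm45774 and Gm45236 lay just inside at means of 10.04 and 10.09 TPM, and Gm44421 and Gm20498 just outside at 9.997 and 9.87 TPM. The highest library was control 3 for 45 of the 204 genes, radiotherapy 2 for 44 and radiotherapy 3 for 42, and radiotherapy 1 for only 7.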

How the data were processed

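RNA from 6 gastrocnemius samples (3 control, 3 radiotherapy, grouped by the treatment label) was profiled from TruSeq libraries. The authors deposited 1 table of TPM values for 57010 genes; HISAT2, StringTie, RSEM and build mm9 are named in the submitters' processing notes, with no versions, roles or annotation release given in the sources used here. Each deposited column summed to the same total, 1000000, which removes depth, so counting error cannot be given.

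Shares are sums of TPM over the column total. Genes reaching 1 TPM in 3 or more libraries were tested with limma 3.58.1 (R 4.3.3) on log2(TPM + 1), a pseudocount of 1, with a mean-variance trend, two-sided, and Benjamini-Hochberg adjustment over all 11375 genes at 0.05. Fold changes of low genes are understated on this scale. Transcripts of the predicted genes were compared with named GENCODE M21 transcripts by blastn 2.17.0 (word size 16, e value 1e-10). Because that annotation is not the authors', likeness and coordinates (GRCm38) hold for M21 only. The fitting script was checked on simulated data.

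The genes named are the mitochondrial-like members, members of at least 100 TPM, the 6 of smallest p in each direction, members with 1 library at least 5 times the next, and those nearest the limit of 10 TPM. Fold changes under the alternatives were computed for the 16 mitochondrial-like and smallest-p genes, and for other genes the levels are the main description. A few items that this rule names are not reported here. Members and lists were chosen with earlier results of these data known, and the kinds of gene and the limits of 98% and 90% were set after values were seen. Other scalings, filters and pseudocounts, and leaving out each library, were tried as alternatives.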

Additional observations from a re-analysis of the deposited data

How the results depend on the processing

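The share of TPM held by the predicted genes and by the mitochondrial-like copies kept its direction in all 10 alternatives. Among these, limits of 5 or 20 TPM in the mean, or 10 TPM in the median, kept the same 6 copies. Such limits therefore could not move the copies' difference of 3.84 percentage points. For the predicted genes, most of whose TPM the copies hold, they gave 3.60, 3.62 and 3.46. Taking the mitochondrial genome out of the total raised the differences to 6.31 and 6.18 percentage points. Leaving out 1 library moved the difference to between 1.28 and 5.29 points for all 204 genes, and to between 1.79 and 5.48 for the copies.

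The median log2 fold change of the predicted genes was 0.069 with median-of-ratios scaling, 0.073 with quantile normalization and 0.15 with mitochondrial genes and copies taken out, where all genes had -0.0014, -0.014 and 0.085. The median of all genes was -0.11 with the deposited scaling. The split of non-overlapping genes, 7 higher and 9 lower, became 10 and 8, 13 and 8, and 12 and 4 (9.42%, 11.0% and 8.65% of the predicted genes tested, against 10.7%, 10.4% and 10.1% of all genes). Leaving out 1 library gave medians from -0.18 to -0.046, between 0 and 1 gene past the threshold over all genes and among the predicted genes, and 23 to 48 non-overlapping predicted genes, since fewer samples overlap less. The 23, without radiotherapy 2, are 12.0% of the predicted genes against 12.3% of all genes; the 48, without control 2, are 25.1% against 17.5%; without radiotherapy 3 the shares were 20.9% and 33.1%. The call was Gm55635 without control 1 (log2 fold change 4.50) and Gm24497 without radiotherapy 1. In each of these fits the gene called was at 0 in every control kept.

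Leaving out control 1 and radiotherapy 2 together, chosen after seeing the data, gave 8 genes past the threshold, 2 of them predicted genes (Gm55635 and Gm43520, the latter named after its values were seen), and 50 non-overlapping predicted genes (26.2%, against 27.1% of all genes). Without radiotherapy 2 the log2 fold change was 0.17 for Gm28437, 0.43 for Gm10925, 0.56 for Gm10222 and -0.68 for Gm7336; it was -0.24 for Gm29216 without radiotherapy 1, 0.97 for Gm45665 without radiotherapy 3 and 1.32 for Gm14539 without control 1. Gm28437 turned negative under quantile normalization (-0.36). Gm28438 turned positive with median-of-ratios scaling (0.046), quantile normalization (0.14), without control 3 (0.037) and without radiotherapy 3 (0.080), and ranged from -0.29 to 0.080 over the libraries left out. The cause was not tested. Control and radiotherapy samples were also correlated after each gene's group mean was subtracted from its log2(TPM + 1). These remainders correlated at -0.0593, 0.0242 and -0.11 for same-numbered samples, and at -0.125 to 0.171 for differently numbered ones. The labels state no pairing, and with 3 samples per group these values cannot show whether samples were matched. The fit with the replicate block called 0 genes. Adding copies to their source genes, also chosen after seeing the data, called 0. Depth is unknown, so zeros have no stated limit.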
